A study of Mus musculus with 78 samples.

Results

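The 4 genes described here, ALDH1A1, ALDH2, ALDH6A1 and ALDH9A1, encode aldehyde dehydrogenases and were chosen by name from the 2755 genes of a mouse toxicology probe panel. The choice was made with earlier results of these data known. Shares of calls among the 4 genes, set beside those of all genes, are therefore descriptions. All 4 were among the 2205 genes that the authors kept after filtering and that were tested here. The panel holds 7 genes whose symbol starts with ALDH, and the other 3 are described with the related pathways.

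Expression was measured with TempO-Seq, in which a pair of short detector oligonucleotides is joined on its target transcript and counted by sequencing, in liver sections of male B6C3F1 mice, 1 library per mouse. Dichloroacetic acid (DCA), a by-product of water disinfection that causes liver tumours in mice, was given in drinking water at 3.5 g/L from 4 weeks of age, and controls drank water without it. The S1 groups received DCA for 10 weeks and were collected at week 10, 32, 57 or 78 of the study (S1-10, S1-32, S1-57, S1-78). The S2 groups received it for 32 weeks (S2-32, S2-78), the S3 groups for 57 weeks (S3-57, S3-78), and the Direct group for all 78 weeks (Direct-78). After DCA was withdrawn the mice drank water until collection. Control-10, Control-32, Control-57 and Control-78 were the age-matched controls. The 68 libraries that the authors kept of 78 were used, with 3 libraries in Direct-78, 4 each in Control-10, S2-78 and S3-78, 5 in S3-57 and 6 in each of the other 8 groups. The tissue came from formalin-fixed, paraffin-embedded blocks stored for decades, with degraded RNA.

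Most aldehyde dehydrogenases oxidize reactive aldehydes to carboxylic acids with NAD or NADP as the electron acceptor, and the liver holds many enzymes of this family. ALDH2 is the mitochondrial enzyme that removes acetaldehyde formed from ethanol, and it also acts on aldehydes from lipid peroxidation. ALDH9A1 oxidizes an aminoaldehyde in the synthesis of carnitine, which carries fatty acids into mitochondria. ALDH6A1 is the mitochondrial methylmalonate semialdehyde dehydrogenase of valine and thymine breakdown, and ALDH1A1 is a cytosolic enzyme that makes retinoic acid from retinal.

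The genes lie on 4 chromosomes of the mouse genome (GRCm38, GENCODE vM21). Aldh1a1 (ENSMUSG00000053279.8) spans chr19:20492715-20643465 on the plus strand, and Aldh2 (ENSMUSG00000029455.14) spans chr5:121566027-121593824 on the minus strand. Aldh6a1 (ENSMUSG00000021238.11) lies at chr12:84430717-84451004 on the minus strand, and Aldh9a1 (ENSMUSG00000026687.14) at chr1:167349991-167368532 on the plus strand. The principal coding transcripts have 16, 13, 12 and 11 exons in the same order, and coding lengths of 1503, 1557, 1605 and 1554 bases. Of the 2309 windows of 50 bases along the Aldh1a1 transcript, 151 also occur in Aldh1a7, its close paralog, while no window of the other 3 transcripts occurs in another gene. The probes' positions are not given in the sources used here, so a share of Aldh1a7 in the ALDH1A1 counts cannot be told apart.

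The 250 bases upstream of the transcription starts are shown as a description (RefSeq, GRCm38.p6, 5′ to 3′ on the gene's strand). They are given for the 3 genes with an entry, which leaves out Aldh2. A link between these sequences and the levels of the genes was not tested. Capitals mark each CCAAT box, read as CCAAT on either strand and therefore also as ATTGG.
Aldh6a1, chr12:84451025-84451274, minus strand: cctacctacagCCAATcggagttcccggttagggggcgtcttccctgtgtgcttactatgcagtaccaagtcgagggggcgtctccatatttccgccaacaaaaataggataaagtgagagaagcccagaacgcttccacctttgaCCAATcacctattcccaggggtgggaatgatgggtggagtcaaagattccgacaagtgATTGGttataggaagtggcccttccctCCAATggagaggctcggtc
Aldh9a1, chr1:167349741-167349990, plus strand: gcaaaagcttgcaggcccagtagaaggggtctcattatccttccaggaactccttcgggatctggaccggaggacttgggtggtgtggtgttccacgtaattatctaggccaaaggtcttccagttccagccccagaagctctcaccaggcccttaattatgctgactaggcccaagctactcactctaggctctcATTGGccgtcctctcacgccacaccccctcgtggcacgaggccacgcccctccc
Aldh1a1, chr19:20601718-20601967, plus strand: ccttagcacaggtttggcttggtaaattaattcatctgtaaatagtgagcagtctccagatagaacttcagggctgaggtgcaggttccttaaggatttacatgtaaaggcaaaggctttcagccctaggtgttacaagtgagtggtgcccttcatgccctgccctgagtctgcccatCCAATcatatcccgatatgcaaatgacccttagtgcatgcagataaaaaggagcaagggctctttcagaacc
The Aldh6a1 window held 4 matches, at positions -239, -104, -46 and -19 from the start, and the Aldh9a1 and Aldh1a1 windows 1 each, at -54 and -72. Of 32851 mouse promoter windows of the same length, 33.8% held at least 1 match and 2.79% at least 3. The Aldh1a1 window belongs to a start 109253 bases downstream of that of the principal transcript. A further Aldh1a1 window at chr19:20492333-20492582, whose start lies 132 bases from that of the principal transcript, held no match. A further Aldh6a1 window at chr12:84448318-84448567 held 1. GGGCGG, found in 32.7% of all windows, and TATAAA, found in 12.4%, were in none of the 3 windows shown on either strand. A match is a description of the letters and not evidence of binding.

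ALDH2 was the most highly counted of the 4 genes and ALDH1A1 the least. Raw counts per library ran from 2854 to 36938 for ALDH2, from 159 to 1324 for ALDH9A1, from 30 to 2997 for ALDH6A1 and from 7 to 725 for ALDH1A1. Levels are given as CPM, the count scaled to the library's total after TMM normalization, and they are not comparable between genes because the vendor attenuated abundant transcripts and each gene has its own probes. Spread within groups divided the genes into 2 pairs. The pooled standard deviation within groups on the log2 scale was 0.38 for ALDH2 and 0.41 for ALDH9A1, which is at the 3.13 and 5.35 percentile of all genes. For ALDH6A1 and ALDH1A1 it was 1.05 and 1.17, beside a median of 0.93 over all genes.

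**Figure D1:**
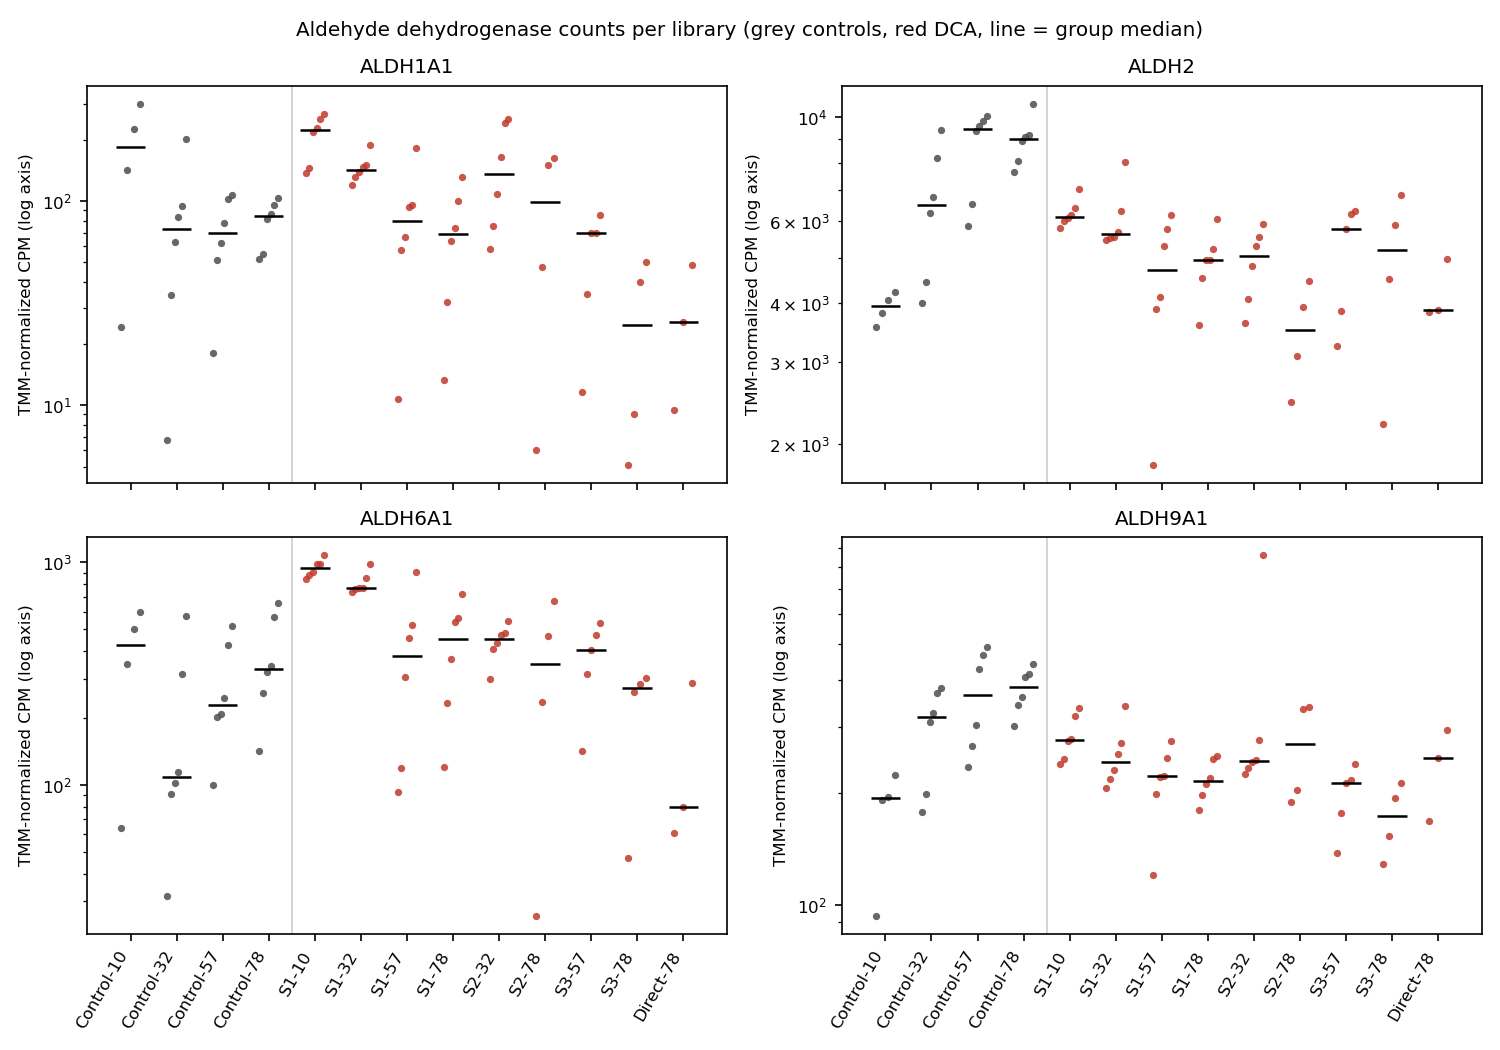
Each point is 1 library, with TMM-normalized CPM on a log axis for the 4 genes, controls in grey, DCA groups in red and the group median as a line. ALDH2 is highest in Control-57 and Control-78, and ALDH6A1 forms tight high groups in S1-10 (844 to 1078 CPM) and S1-32 (734 to 986 CPM).

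Total counts of the libraries used ran from 541245 to 4285848 with a median of 2162678. Totals of the DCA group did not overlap those of its control in S1-32, S3-57, S3-78 and Direct-78, and were lowest in Direct-78, at 541245 to 699825. The 7 hepatocyte markers on the panel summed to between 30338 and 129354 CPM per library, and no marker was at 0 in all libraries of a group. In 9 libraries the pancreas markers summed to over 10 times the median of all libraries (mice 17, 19, 31, 36, 47, 51, 54, 55 and 64), with up to 23083 CPM in S1-78, against at most 96.8 CPM in any control library. The squared Spearman correlation of a library with the mean log2 CPM of all deposited libraries was under 0.7 for 2 libraries used, mouse 75 (Control-32) and mouse 66 (Direct-78).

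Each DCA group was compared with its age-matched control to ask whether exposure, or exposure that had ended, changed the genes. A call required an adjusted p of 0.05 or less in edgeR's quasi-likelihood test and a fold change beyond 1.5. Of the 36 tests of the 4 genes 8 were called, beside 10.5% of the 19845 tests of all genes. The genes were chosen with earlier results known, so this comparison is a description. By edgeR, ALDH2 was lower in 5 groups and ALDH9A1 in 2, ALDH6A1 was higher in 1, and ALDH1A1 was called in none. In bulk liver, fewer cells of a type and less RNA per cell cannot be told apart.

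ALDH2 fell in every DCA group collected at week 78. In Control-78 it ranged from 7656 CPM through a median of 8992 to 10678. In S1-78 it ranged from 3591 through 4956 to 6062. The S1 mice had not received DCA for 68 weeks. The ranges did not overlap, as for 0.998% of all genes. The log2 fold change was -0.87 ± 0.24 (SE, 6 against 6 libraries, adjusted p = 0.0365, edgeR), and 1.81% of all genes were called in this contrast, 0.816% as lower. In the same contrast all 8 stellate cell and fibroblast markers were positive, with 3 called higher and a median of 1.30, and their sum was 194.5 to 2016 CPM in S1-78 and 83.9 to 199.7 CPM in Control-78. The 4 pancreas markers tested were all called higher, with a median of 9.07. The part of either list in the ALDH2 change was not tested.

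In S2-78, withdrawn from DCA for 46 weeks, the libraries held 2456, 3090, 3933 and 4463 CPM of ALDH2. Their mean, 3486 ± 889 CPM (SD, n = 4), was the lowest of the 13 groups, and no library reached the control range, as for 2.00% of all genes. The log2 fold change was -1.36 ± 0.28 (SE, adjusted p = 0.00274, edgeR), with 1.63% of all genes called and 0.816% lower. There the stellate cell and fibroblast markers had a median of 1.03 with 2 of 8 called higher, and the pancreas markers one of 7.37 with 2 of 4 called higher, whose part was not tested either. S3-78 held 2207, 4510, 5898 and 6812 CPM, all below the controls, as for 7.80% of all genes. The change was -0.88 ± 0.27 (adjusted p = 0.0222, edgeR), with 13.3% of all genes called. In the same contrast the 7 hepatocyte markers had a median change of -1.06 and 6 of them were negative, and the 6 periportal and 7 pericentral markers had medians of -1.01 and -0.37. The summed level of the hepatocyte markers was 46075 to 90301 CPM in S3-78 and 47307 to 78149 CPM in Control-78, with none at 0. The part of these markers in the S3-78 changes was not tested.

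Direct-78 held 3838, 3877 and 4990 CPM of ALDH2, all below the lowest control, as for 13.9% of all genes. The log2 fold change was -1.08 ± 0.30 (SE, 3 against 6 libraries, adjusted p = 0.00912, edgeR) in a contrast where 24.4% of all genes were called and 18.7% were lower. The median gene moved by -0.33 in the same contrast, so ALDH2 stood at -0.74 relative to the median gene on the log2 scale. There the 7 hepatocyte markers had a median change of -0.99, and all were negative with 3 called lower. Their sum, 55712 to 65325 CPM, lay within the control range. The 7 pericentral markers had a median of -1.41 with 1 called higher and 1 lower, and the 6 periportal ones of -0.65 with 2 called lower. Of other cell types, all 6 macrophage markers were negative with a median of -1.13 and 1 called lower, and the 4 cholangiocyte markers had a median of 2.56 with 2 called higher and 1 lower. The 5 endothelial markers had a median of -0.92 with 1 called lower, and the 2 lymphocyte markers one of -2.13 with 1 called lower. The 3 erythroid markers summed to 22.2 to 94.3 CPM in Direct-78, where 2 of them were at 0 in every library, and to 256.4 to 622 CPM in Control-78. Their part in the result was not tested.

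Over all week-78 groups, each of the 17 DCA libraries lay below each of the 6 controls for ALDH2, which held for 6 of the 2205 genes (0.272%). This count rests on the TMM factors. With CPM from library totals alone 7 of the 17 lay below every control, and the ranges were 2403 to 8825 CPM with DCA and 5239 to 8293 in the controls. The choice of factors moved the median of all genes as well: in Direct-78 by -0.33 with TMM, 0.07 with RLE, 0.12 with upper-quartile factors and 0.43 with totals, and in S3-78 by 0.07 with TMM and 0.85 with totals. Relative to the median gene, the change of ALDH2 over these 4 scalings was between -0.96 and -0.93 in S1-78, -1.44 and -1.36 in S2-78, -1.01 and -0.94 in S3-78, and -0.75 and -0.72 in Direct-78. A factor moves all genes of a library alike, and subtracting the median gene removes most of that shift. The narrow ranges were therefore fixed in advance and do not test the calls.

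Before week 78, edgeR called ALDH2 lower in 1 of 5 DCA groups, while its values were negative in 4. With the 4 calls at week 78 this made it 1 of 9 genes (0.408%) called lower in at least 5 of the 9 DCA contrasts. The 4 week-78 contrasts share the Control-78 libraries, so their calls are not independent of each other. Control-57 ranged from 5843 CPM through 9458 to 10077, and S1-57 from 1807 through 4718 to 6169. Of the 6 S1-57 libraries 5 lay below all controls, and the log2 fold change was -0.92 ± 0.24 (SE, adjusted p = 0.0293, edgeR), with 1.59% of all genes called and 1.22% lower. In the same contrast all 6 macrophage markers were negative, with a median of -0.33 and 1 called lower. All 5 endothelial markers were positive, with a median of 0.77 and none called. The part of these markers in the ALDH2 change was not tested. S3-57 held 3248, 3850, 5770, 6210 and 6292 CPM and did not pass, at -0.75 ± 0.25 (adjusted p = 0.0568, edgeR), with 6.39% of all genes called. It was called in 6 of 15 other settings, among them DESeq2 (-0.70, adjusted p = 0.00406).

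At week 32 the groups overlapped for ALDH2. Control-32 ranged from 4004 CPM through 6502 to 9399, S1-32 from 5456 through 5628 to 8043, and S2-32 from 3634 through 5048 to 5928. The fold changes were -0.09 ± 0.24 in S1-32 and -0.41 ± 0.24 in S2-32, with adjusted p of 0.784 and 0.229 (edgeR), where 29.1% and 10.7% of all genes were called. With upper-quartile factors S2-32 passed (-0.59, adjusted p = 0.0472, edgeR). At week 10 the values pointed the other way, with 5801 to 7020 CPM in S1-10 (median 6131) and 3553, 3824, 4072 and 4233 CPM in Control-10. All 6 S1-10 libraries lay above all 4 controls, as they did for 9.07% of all genes, and the change of 0.67 ± 0.27 did not pass in edgeR (adjusted p = 0.127, with 5.49% of all genes called). DESeq2 called it higher (0.59, adjusted p = 0.0362).

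**Figure D2:**
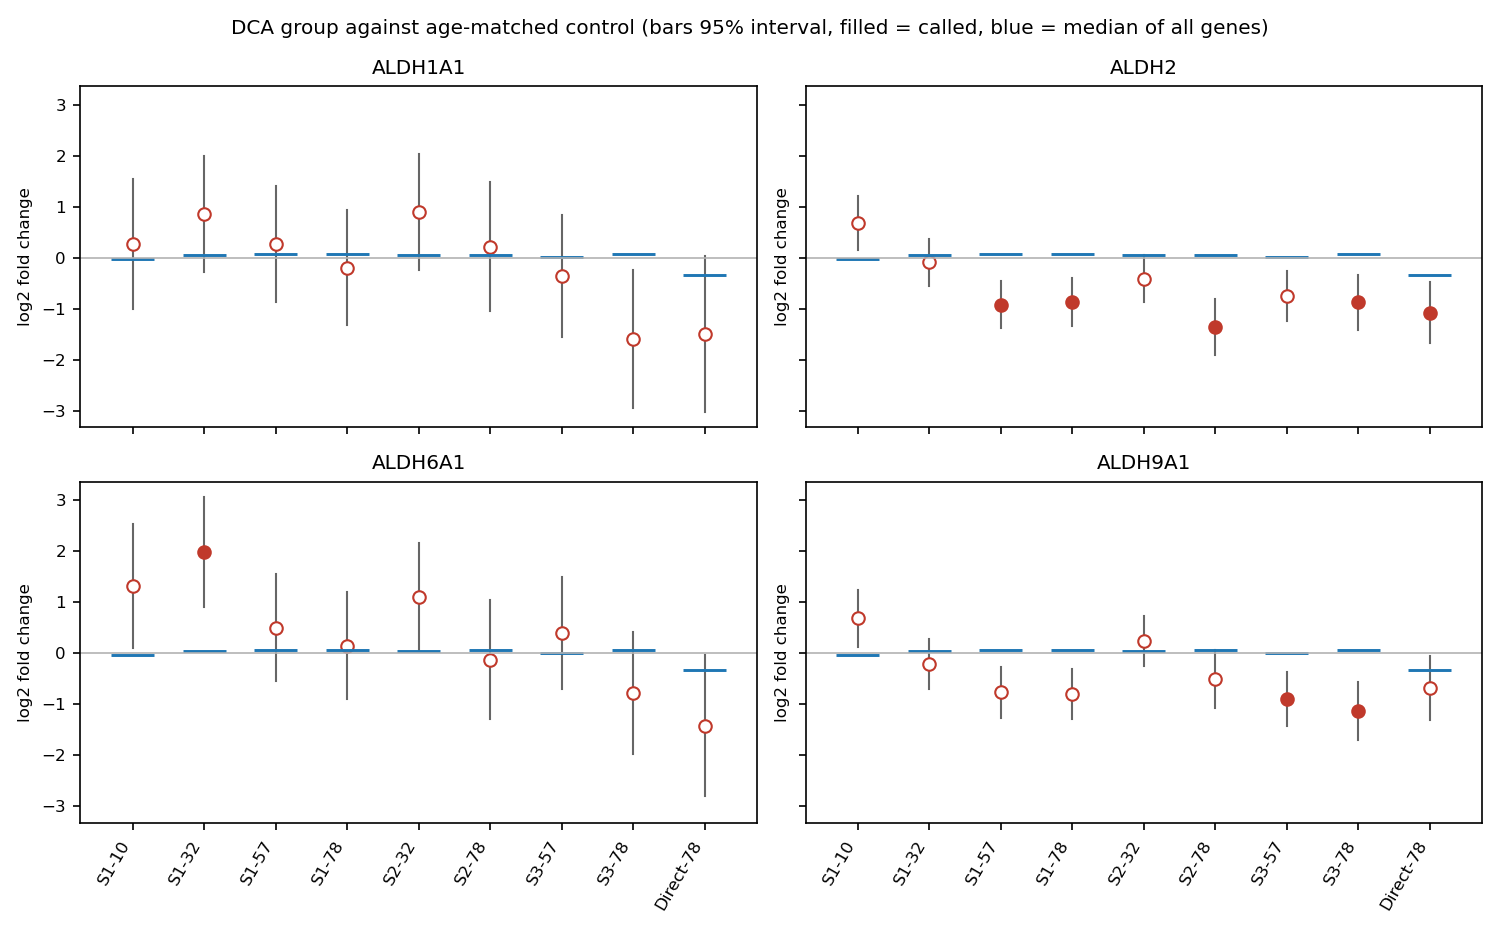
Log2 fold change of each gene in each DCA group against its age-matched control, with 95% intervals as bars, called changes filled and the median of all genes in blue. Called changes of ALDH2 lie between -1.36 and -0.87 in S1-57 and the 4 week-78 groups.

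Several of the ALDH2 calls were close to the threshold and were lost without single libraries. Over all removals the log2 fold change ran from -1.05 to -0.75 in S1-57 and from -0.94 to -0.80 in S1-78. It ran from -1.05 to -0.65 in S3-78 and from -1.12 to -0.91 in Direct-78. The call in S1-57 was lost without mouse 25, 27, 28 or 29 of S1-57 or mouse 79, 80, 81 or 83 of Control-57 (-0.75, adjusted p = 0.0805, edgeR, without mouse 27). The call in S1-78 was lost without mouse 31 or 34 or without mouse 86, 87, 88, 89 or 90 of Control-78 (-0.80, adjusted p = 0.0815, edgeR, without mouse 31). The call in S3-78 was lost without mouse 55 or 59, with -0.65 and adjusted p = 0.114 (edgeR) without mouse 59. That in Direct-78 was lost without mouse 64 (-0.91, adjusted p = 0.0691, edgeR) or mouse 66 (-0.99, adjusted p = 0.0533, edgeR). S3-57 gained a call without mouse 50, 53, 82 or 84, at adjusted p of 0.0258 to 0.0423 (edgeR). The call in S2-78 held in all 10 removals, with -1.47 to -1.22, and in 12 of 15 other settings. It was lost with totals alone (-0.74, adjusted p = 0.0814, edgeR), all deposited libraries (-1.49, 0.0846) and only the compared groups (-1.35, 0.148). Of the same 15 settings the call held in 11 for S1-57, 8 for S1-78, 9 for S3-78 and 8 for Direct-78, and with only the compared groups ALDH2 was called in no DCA contrast. Without the 9 libraries of high pancreas signal, the calls in S1-57 (-0.92, adjusted p = 0.0245, edgeR) and S2-78 (-1.25, adjusted p = 0.0181, edgeR) held and those in S1-78, S3-78 and Direct-78 did not. With library totals alone none of the 5 was called by edgeR, and the log2 fold changes were closer to no change. They were -0.71 in S1-57, -0.35 in S1-78, -0.74 in S2-78, -0.12 in S3-78 and -0.29 in Direct-78.

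ALDH9A1 fell in the S3 groups. In Control-57 it ranged from 234 CPM through 365 to 489, while S3-57 held 138, 177, 212, 217 and 238. The controls overlapped the DCA libraries only through mouse 84 at 234 CPM. The log2 fold change was -0.89 ± 0.27 (SE, 5 against 6 libraries, adjusted p = 0.0317, edgeR), and 3.54% of all genes were called lower. In the same contrast 6 of 8 stellate cell and fibroblast markers were negative, with a median of -1.03 and 1 called lower, as were 6 of 7 hepatocyte markers, with -0.25 and 1 called lower, and the 5 endothelial markers had a median of -0.71. The summed levels of all 3 lists overlapped Control-57, and their part in the result was not tested. The call was lost without mouse 49 or 51 of S3-57, or without mouse 79, 81 or 83 of Control-57 (-0.81, adjusted p = 0.108, edgeR, without mouse 51), and in 4 of 15 other settings. These were totals alone (-0.41, adjusted p = 0.380, edgeR), all deposited libraries (-1.09, 0.114), without the libraries of high pancreas signal (-0.73, 0.199) and only the compared groups (-0.86, 0.0762).

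In S3-78, withdrawn for 21 weeks, ALDH9A1 stood at 129, 154, 193 and 212 CPM, beside the hepatocyte marker median of -1.06 given above, and in Control-78 it ranged from 301 through 383 to 440. The groups did not overlap, and the log2 fold change was -1.14 ± 0.29 (adjusted p = 0.00636, edgeR), with 7.48% of all genes called lower. As a description, 7.80% of all genes lay below the controls in this way. The call held in all 10 removals of a library (-1.25 to -0.98) and in 14 of 15 other settings, and was lost with library totals alone (-0.36, adjusted p = 0.316, edgeR). Relative to the median gene the change was -1.23 to -1.202 over the 4 scalings, but subtracting the median gene keeps this range narrow, so it does not test the call.

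In the other groups ALDH9A1 was not called. The S1-78 libraries lay between 180 and 251 CPM, all below the controls, as for 0.998% of all genes, with a change of -0.80 ± 0.25 (adjusted p = 0.0822, edgeR). S1-57 ran from 121 to 274 CPM (-0.77 ± 0.25, adjusted p = 0.118, edgeR). Direct-78 held 168, 247 and 294 CPM, all below the controls, as for 13.9% of all genes, at -0.68 ± 0.32 (adjusted p = 0.108, edgeR) or -0.35 relative to the median gene, and S2-78 held 188, 204, 335 and 338 CPM (-0.50 ± 0.29). With library totals alone the Direct-78 and S2-78 values were 0.10 and 0.06, and with all deposited libraries that of Direct-78 passed (-1.12, adjusted p = 0.0132, edgeR). At week 10, S1-10 ran from 238 to 336 CPM, above the 93.7, 191, 195 and 222 CPM of Control-10, as for 9.07% of all genes (0.68 ± 0.29, adjusted p = 0.151, edgeR).

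At week 32, S2-32 held 1 library far from the others. Mouse 41 had 862 CPM of ALDH9A1, while the other 5 libraries had between 224 and 276 CPM. The fold change in S2-32 was 0.24 ± 0.25 with this library and -0.27 without it (adjusted p = 0.526 and 0.402, edgeR), and with library totals alone it was 0.78 and passed (adjusted p = 0.0262, edgeR). S1-32 ran from 206 to 340 CPM, within the 178 to 380 CPM of Control-32 (-0.21 ± 0.25, adjusted p = 0.539, edgeR).

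ALDH6A1 rose in S1-32, 22 weeks after DCA had ended. The 6 libraries ranged from 734 CPM through 766 to 986, and those of Control-32 from 31.8 through 108 to 574. All treated libraries lay above all controls, as they did for 6.03% of all genes. The log2 fold change was 1.98 ± 0.55 (SE, adjusted p = 0.00702, edgeR), and 11.9% of all genes were called higher in this contrast. All 6 macrophage markers were positive there and 3 were called higher, with a median of 1.39, and their sum was 956.4 to 1403 CPM against 258.7 to 909 in Control-32. Of the 7 pericentral markers 6 were positive and 3 called higher, with a median of 0.92. The 6 periportal markers had a similar median of 0.90, with 1 called higher and 1 lower. The 5 endothelial and 4 pancreas markers had medians of 0.69 and 3.51, with 1 called higher in each list. The 4 cholangiocyte and 3 erythroid markers had medians of -1.23 and -0.71, with none called. The part of these markers in the ALDH6A1 change was not tested. The call held in all 12 removals of a library, with 1.74 to 2.62. It was lost with all deposited libraries (1.963, adjusted p = 0.0566, edgeR) and with the log2 total count as a covariate (1.13, adjusted p = 0.284, edgeR). The squared Spearman correlation was 0.90 to 0.92 in S1-32 and 0.63 to 0.95 in Control-32. With it as a covariate the change was smaller and still called, as given below. Relative to the median gene the change was 1.78 to 2.09 over the 4 scalings, which does not test the call because subtracting the median gene narrows the range.

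The S1-10 libraries were at a similar level, 844 to 1078 CPM with a median of 943, and Control-10 held 64.2, 350, 503 and 597 CPM. The groups did not overlap, as for 9.07% of all genes that lay above, but the change of 1.32 ± 0.62 was not called (adjusted p = 0.208, edgeR), and mouse 68 alone was at 64.2 CPM. S2-32 ran from 301 through 455 to 547 CPM and overlapped Control-32, at 1.10 ± 0.54 (adjusted p = 0.167, edgeR). It was called without mouse 74 of Control-32, at 1.74 and adjusted p = 0.0193 (edgeR), and by limma-trend at 1.67 (adjusted p = 0.0415).

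At weeks 57 and 78 ALDH6A1 varied over a wide range within groups. S1-57 ran from 92.8 to 906 CPM and S1-78 from 120 to 721 CPM, with changes of 0.50 ± 0.53 and 0.15 ± 0.53. S2-78 held 25.8, 235, 466.1 and 672 CPM, S3-57 ran from 142 to 533 CPM, and S3-78 held 47.1, 262, 284 and 301 CPM. Direct-78 held 60.8, 79.9 and 288 CPM, against 142 to 658 CPM in Control-78, with a change of -1.42 ± 0.70 (adjusted p = 0.125, edgeR). Without mouse 65, the highest of the 3, it was -2.22 and passed (adjusted p = 0.0369, edgeR), as it did with all deposited libraries (-2.10, adjusted p = 0.0254, edgeR). The sign turned to 1.31 with the log2 total count and 1.12 with the library's squared Spearman correlation as a covariate.

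ALDH1A1 passed in no DCA contrast in the edgeR fit. Its group means ran from 208 ± 54.8 CPM in S1-10 (SD, n = 6) to 26.1 ± 22.5 CPM in S3-78 (n = 4), and S3-78 and Direct-78 were the lowest groups. S3-78 held 5.10, 9.0, 40.3 and 50.2 CPM and Direct-78 9.45, 25.6 and 48.4 CPM, while Control-78 ranged from 51.9 to 103. Neither group overlapped the controls, as for 7.80% and 13.9% of all genes that lay below. The changes were -1.60 ± 0.69 (adjusted p = 0.111, edgeR) and -1.49 ± 0.78 (adjusted p = 0.148, edgeR), and the Direct-78 value passed when adjusted for how many genes were detected (-2.44, adjusted p = 0.0360, edgeR) and turned to 1.31 with the squared Spearman correlation. The counts behind the lowest values were 10 in S3-78 and 7 in Direct-78.

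In the other 7 groups the ALDH1A1 values lay between -0.36 and 0.89, and all of those groups overlapped their controls. Within Control-32 alone it ran from 6.76 CPM in mouse 75 to 201 CPM in mouse 74, and within S1-57 from 10.7 to 183. The 95% interval of the change in S1-10 was -1.002 to 1.54, so a change of 2-fold in either direction was not resolved.

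An F test over all 9 DCA contrasts called ALDH2 (adjusted p = 4.80e-05, edgeR), ALDH9A1 (0.000724) and ALDH6A1 (0.0212), and gave 0.207 for ALDH1A1. The same test called 50.8% of all genes. The median change over the 4 genes, beside that of all genes, was 0.68 and -0.03 in S1-10, 0.38 and 0.05 in S1-32, 0.57 and 0.05 in S2-32, -0.25 and 0.07 in S1-57, and -0.55 and 0.01 in S3-57. At week 78 it was -0.50 and 0.07 in S1-78, -0.32 and 0.06 in S2-78, -1.01 and 0.07 in S3-78, and -1.25 and -0.33 in Direct-78.

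The age of the untreated liver set the level against which each DCA group was read. In the controls, 4 of 24 tests of the 4 genes were called, beside 1.71% of all tests, and all 4 were rises of ALDH2 or ALDH9A1 after week 10. The mean of ALDH2 was 3920 ± 297 CPM in Control-10 (SD, n = 4), 6505 ± 2090 in Control-32, 8533 ± 1851 in Control-57 and 8926 ± 1048 in Control-78 (n = 6 each). Every Control-57 and Control-78 library lay above every Control-10 library, which 3.17% and 4.31% of all genes showed. The log2 changes from week 10 were 1.12 ± 0.27 at week 57 (adjusted p = 0.0127, edgeR) and 1.19 ± 0.27 at week 78 (adjusted p = 0.00768, edgeR), where 2.40% and 2.36% of all genes were called higher.

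ALDH9A1 followed the same course, with means of 176 ± 56.3, 293 ± 85.7, 364 ± 110 and 378 ± 52.2 CPM at the 4 ages. The changes from week 10 were 1.05 ± 0.29 at week 57 (adjusted p = 0.0262, edgeR) and 1.10 ± 0.29 at week 78 (adjusted p = 0.0203, edgeR), again with no overlap, as for 3.17% and 4.31% of all genes. Without mouse 68 of Control-10, which had 93.7 CPM, both calls were lost (0.89 and 0.95, adjusted p = 0.0781 and 0.0845, edgeR). The week-57 call was also lost without mouse 71 or 72 of Control-10 or mouse 81 or 83 of Control-57. The ALDH2 calls held in all 10 removals each. With library totals alone or only the compared groups none of the 4 was called, and with all deposited libraries 1. Relative to the median gene the changes over the 4 scalings were 1.11 to 1.26 for ALDH2 and 1.05 to 1.21 for ALDH9A1. Subtracting the median gene narrows these ranges, so they do not bear on the lost calls.

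Neither gene was called between Control-32, Control-57 and Control-78. In the reported edgeR fit ALDH1A1 and ALDH6A1 were not called between any ages. ALDH1A1 was called from week 10 to week 57 in 1 of 15 other settings. Without mouse 74 of Control-32, ALDH2 and ALDH9A1 also passed from week 10 to week 32 (0.84 and 0.85, adjusted p = 0.0382 and 0.0495, edgeR), as they did in DESeq2 with all libraries (0.77 and 0.82, adjusted p = 0.00836 and 0.0488). For the other genes the widest change was -1.30 ± 0.64 for ALDH1A1 from week 10 to week 57 (adjusted p = 0.289, edgeR). The F test over the 4 ages gave 0.0140 for ALDH2 and 0.0431 for ALDH9A1 (adjusted p, edgeR), with 5.12% of all genes called. The ALDH9A1 value lost its call in 12 of 22 removals of a control library, with the highest adjusted p of 0.140 (edgeR) without mouse 68.

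**Figure D3:**
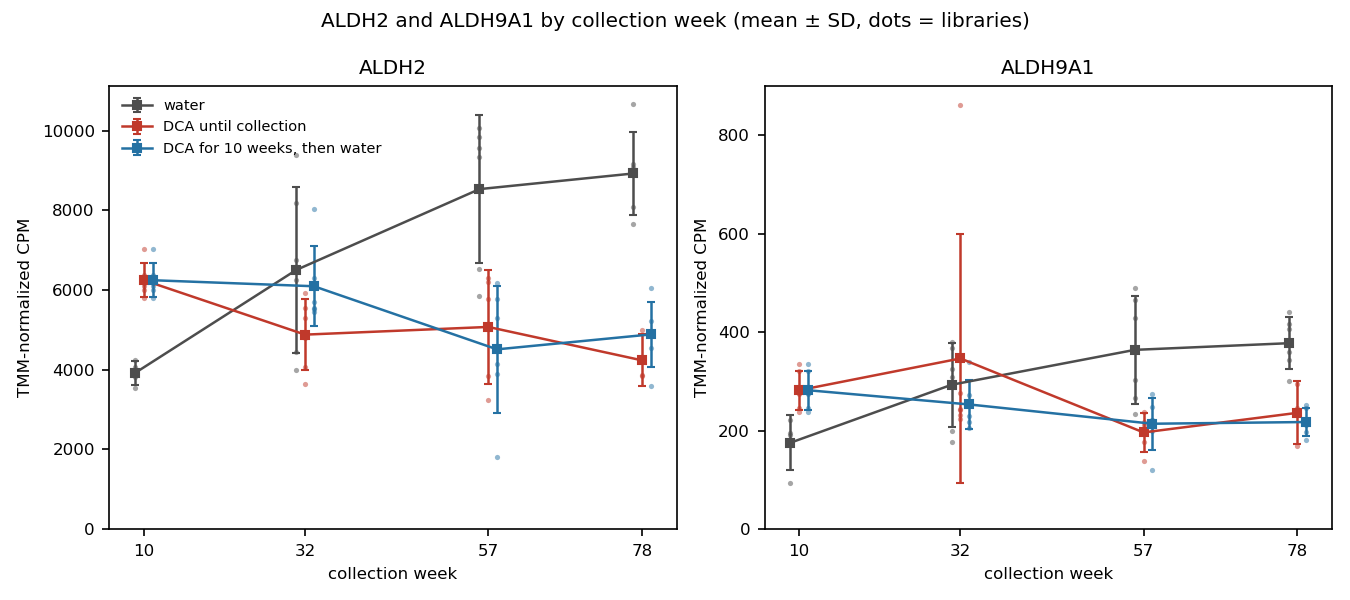
Mean and standard deviation of TMM-normalized CPM against collection week for ALDH2 and ALDH9A1, with each library as a dot, for water, DCA until collection (S1-10, S2-32, S3-57, Direct-78) and DCA for 10 weeks followed by water (S1). The water mean of ALDH2 goes from 3920 CPM at week 10 to 8926 CPM at week 78, and that of the S1 groups from 6246 to 4886 CPM.

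Whether the change against controls itself differed between DCA groups was tested with interaction terms. Of 40 tests of the 4 genes 11 were called, beside 9.33% of the tests of all genes, and they lay in 5 of the 10 differences tested. The differences of Direct-78 from S1-10 and S2-32, in which 33.8% and 35.4% of all genes were called, held 5 of the 11. None of the 4 genes was called in the difference of Direct-78 from S3-57. ALDH2 and ALDH9A1 were each called in the same 4 differences, all with S1-10. For ALDH2 the change in S1-57 minus that in S1-10 was -1.59 ± 0.36 (adjusted p = 0.00728, edgeR, with 3.67% of all genes called), and that in S1-78 minus S1-10 was -1.54 ± 0.36 (adjusted p = 0.00799, edgeR, 4.22%). For ALDH9A1 the same differences were -1.45 ± 0.38 (adjusted p = 0.0226, edgeR) and -1.48 ± 0.38 (adjusted p = 0.0148, edgeR). All differences from S1-10 have Control-10 and S1-10 in common and are not independent of each other.

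Of the groups with DCA until collection, S3-57 and Direct-78 also differed from S1-10, while S2-32 did not pass, at -1.09 for ALDH2 and -0.44 for ALDH9A1 (adjusted p = 0.0958 and 0.675, edgeR), although DESeq2 called the former (-1.07, adjusted p = 0.00561). For S3-57 the difference was -1.42 ± 0.37 for ALDH2 (adjusted p = 0.0103, edgeR) and -1.57 ± 0.39 for ALDH9A1 (adjusted p = 0.00874, edgeR), with 6.21% of all genes called. For Direct-78 it was -1.75 ± 0.41 for ALDH2, -1.36 ± 0.43 for ALDH9A1 and -2.74 ± 0.94 for ALDH6A1 (adjusted p = 0.00117, 0.0122 and 0.0208, edgeR), where the median gene stood at -0.35. The change in Direct-78 minus that in S2-32 was -2.52 ± 0.89 for ALDH6A1 and -2.38 ± 0.97 for ALDH1A1 (adjusted p = 0.0246 and 0.0493, edgeR). The 4 ALDH2 differences held in every removal of a library. With library totals alone only that of S1-57 was called (-1.10, adjusted p = 0.0319, edgeR), and those of S3-57, S1-78 and Direct-78 were -0.71, -0.74 and -0.68 (adjusted p = 0.176, 0.130 and 0.162, edgeR). With the log2 total count as a covariate those of S3-57 and Direct-78 were lost (-1.21 each, adjusted p = 0.0656 and 0.263, edgeR), and with the squared Spearman correlation that of Direct-78 (-0.98, adjusted p = 0.132, edgeR). With all deposited libraries those of S3-57, S1-57 and S1-78 were lost (-1.89, -1.82 and -1.76, adjusted p = 0.0573, 0.0972 and 0.0918, edgeR), and without the libraries of high pancreas signal that of S3-57 (-1.19, adjusted p = 0.105, edgeR).

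Of the 4 ALDH9A1 differences 3 were lost without mouse 68 of Control-10, with -1.27, -1.30 and -1.03 for S1-57, S1-78 and Direct-78 (adjusted p = 0.104, 0.107 and 0.0783, edgeR), and the last also without mouse 64 (-1.04, adjusted p = 0.0862, edgeR). The ALDH9A1 difference of Direct-78 was called in 7 of 15 other settings, and was -0.92 with RLE factors, -0.80 with upper-quartile factors and -0.35 with totals alone (adjusted p = 0.0751, 0.139 and 0.521, edgeR) and -0.92 in DESeq2 (adjusted p = 0.0628). The other 3 ALDH9A1 differences were lost with totals alone (-0.95 to -0.68), and that of S3-57 also without the libraries of high pancreas signal. The ALDH6A1 difference of Direct-78 from S1-10 was lost without mouse 64, 66 or 68 (-2.36, -2.31 and -2.28). It was -0.095 with the log2 total count and -0.071 with the squared Spearman correlation as a covariate (adjusted p = 0.981 and 0.974, edgeR). The difference from S2-32 was lost without mouse 64, 66 or 85 (-2.09, -2.12 and -2.14). The ALDH1A1 difference held in 5 of 21 removals, with -2.91 to -1.96 over all of them, and in 3 of 15 other settings. With the squared Spearman correlation as a covariate the differences of Direct-78 from S2-32 turned to 0.55 for ALDH6A1 and 1.198 for ALDH1A1, and with the log2 total count they were 0.41 and -1.001.

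Stopped and continued exposure were compared at the same collection week, S1-32 with S2-32, S1-57 with S3-57, and S1-78, S2-78 and S3-78 with Direct-78. None of the 20 tests of the 4 genes was called by edgeR, beside 8.67% of all tests. At an unadjusted p under 0.05 there were 2, ALDH1A1 in S2-78 against Direct-78 and ALDH6A1 in S1-78 against Direct-78 (1.57 ± 0.71, adjusted p = 0.0883, edgeR), and DESeq2 called none. The ALDH6A1 libraries of S1-32 all lay above those of S2-32, as for 7.17% of all genes, at 0.88 ± 0.54 (adjusted p = 0.404, edgeR). Without mouse 65 of Direct-78, ALDH6A1 in S1-78 passed at 2.37 (adjusted p = 0.0278, edgeR). The intervals of the ALDH2 differences ran from -0.65 to 0.32 in S1-57 against S3-57 and from -0.37 to 0.78 in S1-78 against Direct-78, so a difference of 1.5-fold was not resolved in either.

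The level of a gene also moved with how closely its library resembled the others. The squared Spearman correlation of each library with the mean of all libraries was set against the log2 level over the 68 libraries, after the group means were subtracted. Pearson's r was 0.81 for ALDH6A1, 0.72 for ALDH1A1, 0.54 for ALDH2 and 0.24 for ALDH9A1, beside a median of 0.10 over all genes. The libraries share their groups and normalization, and r is a description. With this measure as a covariate, ALDH2 in Direct-78 was -0.43 (adjusted p = 0.446, edgeR), ALDH6A1 in S1-32 was 1.18 (adjusted p = 0.0466, edgeR) and ALDH2 in S2-78 was -1.13 (adjusted p = 0.00601, edgeR). With the log2 total count as a covariate ALDH2 was -0.55 in Direct-78 (adjusted p = 0.563, edgeR), -0.63 in S3-78 (0.206), -0.78 in S1-78 (0.0556) and -1.14 in S2-78 (0.0257). Adjusted for how many genes were detected, all 4 calls of week 78 held, and without libraries under a squared correlation of 0.7 that of Direct-78 was lost (-0.97, adjusted p = 0.0503, edgeR).

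**Figure D4:**
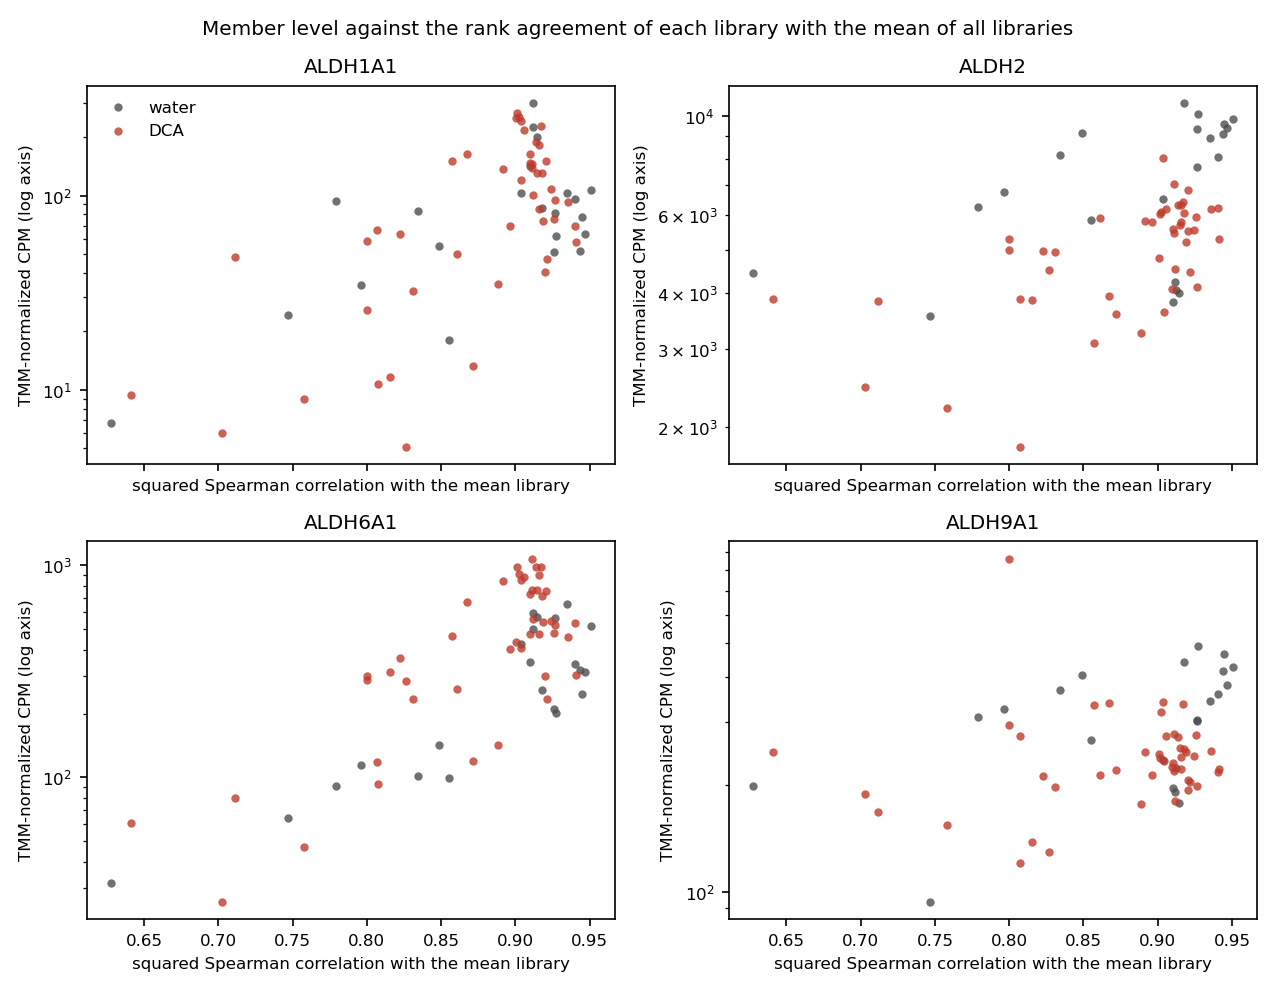
TMM-normalized CPM on a log axis against the squared Spearman correlation of each library with the mean library, for the 4 genes in 68 libraries, with controls in grey and DCA libraries in red. Within groups r is 0.81 for ALDH6A1 and 0.24 for ALDH9A1.

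The group means of the 4 genes were most alike in pairs. Over the 13 group means r was 0.81 between ALDH1A1 and ALDH6A1 and 0.74 between ALDH2 and ALDH9A1, and within groups over 68 libraries it was 0.78 and 0.58. Among all tested genes, by r over the group means, ALDH6A1 ranked only 168 for ALDH1A1 and ALDH9A1 ranked 25 for ALDH2. The other pairs had r of 0.17 to 0.34 over group means, but within groups r was 0.52 between ALDH2 and ALDH6A1 and 0.46 between ALDH1A1 and ALDH2, close to that of ALDH2 and ALDH9A1. The genes with the pattern most like each one, by r over the 13 group means among all tested genes, were MSRA (0.91), SLC25A46 (0.89) and C2CD2 (0.88) for ALDH2, and AADAT (0.91), SPRED2 (0.90) and B3GNT1 (0.87) for ALDH9A1. For ALDH6A1 they were LYRM1 and BPHL (both 0.97) and KLHDC2 (0.96), and for ALDH1A1 ATP5B (0.97), TLK2 and NSUN2 (both 0.95). Over the 68 libraries, whose values hold the same group means, MSRA, AADAT, BPHL and ATP5B ranked first (r = 0.85, 0.76, 0.94 and 0.88). The other genes of highest r ranked lower there, from 3 for C2CD2 to 184 for KLHDC2 and 254 for LYRM1. With the group means subtracted MSRA ranked 1, and AADAT, BPHL and ATP5B each ranked 5. MSRA reduces oxidized methionine, AADAT is an aminotransferase of lysine and tryptophan breakdown, and ATP5B is a subunit of ATP synthase. The most opposite patterns were AP2M1 (-0.80), NPDC1 (-0.91), AV320801 (-0.97) and GM6756 (-0.96) for ALDH2, ALDH9A1, ALDH6A1 and ALDH1A1.

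Of 16 other aldehyde dehydrogenases listed, 3 were on the panel, ALDH3A2, ALDH7A1 and ALDH8A1. Of their 27 tests against controls 4 were called by edgeR, all lower, beside 10.5% of the tests of all genes. ALDH7A1 was called in none. ALDH8A1, which acts in tryptophan breakdown, fell in S1-32 (-1.12 ± 0.38, adjusted p = 0.0230), S2-32 (-1.27 ± 0.38, 0.0228) and S3-78 (-1.49 ± 0.44, 0.0172, all edgeR). The calls were lost without mouse 78 in S1-32 (-0.96, adjusted p = 0.0716, edgeR), without mouse 75 or 78 in S2-32 (-1.10, adjusted p = 0.0792, edgeR, without 78) and without mouse 55 or 86 in S3-78 (-0.88, adjusted p = 0.134, edgeR, without 86). ALDH3A2, the fatty aldehyde dehydrogenase, fell in S1-32 (-2.29 ± 0.59, adjusted p = 0.00410, edgeR), where 29.1% of all genes were called. Control-32 held 574, 810, 891, 1091, 4371 and 12477 CPM of it and S1-32 384 to 1069, and without mouse 73, the highest control, the call was lost (-1.17, adjusted p = 0.0976, edgeR). The median of the 3 genes ran from -1.12 in S1-32 to 0.16 in S1-10, beside 0.05 and -0.03 over all genes.

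Of 25 enzymes that make or remove alcohols and aldehydes, 10 were tested and 14 of 90 tests were called, 7 higher and 7 lower, beside the 10.5% of all genes. The carbonyl reductases CBR3 and CBR1 were lower in S1-10 (-4.13 ± 0.78 and -1.84 ± 0.45, adjusted p = 0.00138 and 0.0102, edgeR) and higher in S3-78 (2.79 ± 0.75 and 1.38 ± 0.44, adjusted p = 0.00883 and 0.0249, edgeR) and Direct-78 (2.15 ± 0.80 and 1.63 ± 0.47, adjusted p = 0.0429 and 0.0107, edgeR). In S1-10 both calls rested on mouse 68, which held 269 CPM of CBR3 while the other Control-10 libraries held 11.6 to 15.5, and without it the changes were -1.59 and -1.38 (adjusted p = 0.476 and 0.250, edgeR). In S3-78 the CBR3 call was lost without mouse 59 (1.13, adjusted p = 0.397, edgeR) and the CBR1 call without mouse 55, 88, 89 or 90 (0.85, adjusted p = 0.262, edgeR, without 55). In Direct-78 the CBR3 call held in 2 of 9 removals (1.70, adjusted p = 0.161, edgeR, without mouse 65) and the CBR1 call in all 9. AKR7A5, an aldehyde reductase, fell in S1-32 (-1.27 ± 0.29), S2-78 (-1.45 ± 0.34) and S3-78 (-1.17 ± 0.33, adjusted p = 0.00178, 0.0101 and 0.0132, edgeR), and the last call was lost without mouse 59 (-0.94, adjusted p = 0.0708, edgeR). The list's median was 0.05 in S1-10 and -0.79 in Direct-78, beside -0.03 and -0.33 over all genes.

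The lists nearest to the other 3 genes had few members on the panel. Of 26 genes of retinoid metabolism, beside ALDH1A1, 4 were tested and none of 36 tests was called by edgeR, while 5 had an unadjusted p under 0.05 and DESeq2 called 1, TTR in S3-78, named after its values were seen. Of 25 genes of branched-chain amino acid and propionate breakdown, beside ALDH6A1, 3 were tested and 2 of 27 tests were called, beside 10.5% of those of all genes. PCCB, a subunit of propionyl-CoA carboxylase, rose in S1-10 (1.15 ± 0.35, adjusted p = 0.0412, edgeR), and HADHA, of mitochondrial fatty acid oxidation, fell in S3-78 (-1.35 ± 0.36, adjusted p = 0.00834, edgeR). The PCCB call held in 3 of 10 removals (0.83, adjusted p = 0.406, edgeR, without mouse 68), and that of HADHA was lost without mouse 55 (-1.04, adjusted p = 0.0640, edgeR). In S3-78 the 3 genes had a median of -1.23, beside 0.07 over all genes.

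Of 17 genes of carnitine, choline and betaine handling, beside ALDH9A1, 3 were tested and 4 of 27 tests were called, again beside 10.5%. DMGDH, which removes a methyl group from dimethylglycine in mitochondria, rose in S1-10 (1.37 ± 0.42) and S1-32 (1.18 ± 0.37) and fell in Direct-78 (-1.62 ± 0.48, adjusted p = 0.0426, 0.0143 and 0.0128, edgeR). The S1-10 call held in 1 of 10 removals (1.17, adjusted p = 0.322, edgeR, without mouse 68), and the others were lost without mouse 75 in S1-32 (0.98, adjusted p = 0.0522, edgeR) and without mouse 64 or 66 in Direct-78 (-1.27, adjusted p = 0.0979, edgeR, without 66). CPT1B, the muscle type of carnitine palmitoyltransferase, had 0 counts in the 3 Direct-78 libraries and 0.833 to 10.8 CPM in Control-78, and was the other call, which was lost without mouse 64 or 66. The list's median was -1.62 in Direct-78 and 0.15 in S1-10. Of 15 genes of DCA breakdown and pyruvate dehydrogenase, the enzyme complex that DCA activates, 4 were tested and 2 of 36 tests were called (10.5% over all genes). PDHX, a subunit of that complex, fell in S1-32 (-1.85 ± 0.30, adjusted p = 7.43e-05, edgeR) and S2-32 (-0.85 ± 0.29, adjusted p = 0.0490, edgeR). The first call held in all 12 removals and the second in 2 of 12 (-0.57, adjusted p = 0.185, edgeR, without mouse 73). The list's medians lay between -0.35 in S3-57 and 0.14 in Direct-78.

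**Figure D5:**
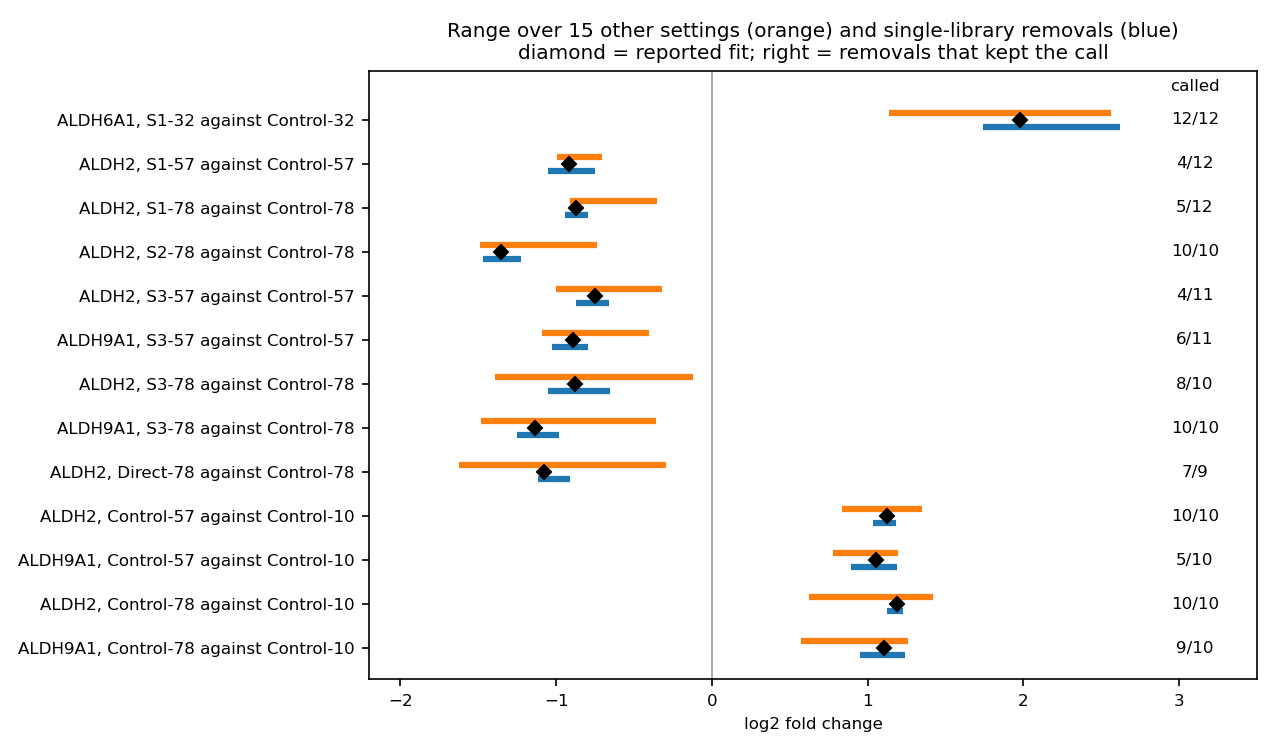
For the 12 called changes against controls or between control ages, and for ALDH2 in S3-57, the log2 fold change as reported (diamond), its range over 15 other settings (orange) and its range when 1 library is left out (blue). The numbers at the right give the removals in which the change was called, from 4 of 12 for ALDH2 in S1-57 to 12 of 12 for ALDH6A1 in S1-32.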

How the data were processed

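Gene expression was measured by TempO-Seq (Mouse S1500+ panel) in FFPE liver sections of 78 mice, 1 library per mouse. The deposited count table holds raw counts per probed gene that the vendor made by aligning reads to the probes, with Bowtie named in the submitters' processing notes. The authors' normalized and filtered tables hold a signal made in Partek Flow 10.0.22.0524, the count plus 1 divided by a median-ratio factor per library. They were used only to find the 68 libraries and the 2205 genes that the authors kept. The build named is mm10.

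Raw counts of these libraries and genes were fitted in R 4.3.3 with edgeR 4.0.16, with TMM factors and 1 quasi-likelihood model with 13 groups. Tests were 2-sided with Benjamini-Hochberg adjustment over 2205 genes within a contrast. Calls in differences and F tests used the adjusted p alone, others also the fold change. SEs were derived from the F statistic, and 95% intervals are 1.96 SE. Log2 CPM used a prior count of 2. DESeq2 1.42.0 and limma 3.58.1 served as alternatives, and Python 3.11.15 for tables. The authors used DESeq2. edgeR replaces it here as the count test.

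The members, the gene lists and the markers were chosen with earlier results of these data known. The genes named are the 4 members, the 3 genes with the highest and the 1 with the lowest correlation with each over 13 group means (the lowest if under -0.7), and up to 3 genes of each list with the most calls. All 151 pairs of replicates were checked for copies, and chi-square per degree of freedom was at least 21.4. On simulated data, 200 genes were changed. All libraries were drawn from 1 mean profile scaled to their totals, without the differences in composition between the real libraries. Errors that come from such differences are therefore not covered by the simulation. For S1-78 against Control-78 the fit found 18 of 100 genes changed 2-fold and 64 of 100 changed 4-fold, with 2 false calls. For Direct-78 against Control-78 it found 8 and 50, with 3 false calls.

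Alternatives were RLE and upper-quartile factors, library totals alone, all 2755 genes, the 2697 genes of filterByExpr, all 78 libraries, leaving out libraries with a squared Spearman correlation under 0.7 or with high pancreas signal, DESeq2 with and without independent filtering, limma-trend, only the compared groups, covariates (log2 total count, or how many genes were detected), the adjusted p alone, and each library left out in turn. The squared Spearman correlation as a covariate, and leaving out each library for genes of the related pathways, were added after seeing the data.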

Additional observations from a re-analysis of the deposited data

Results flagged for a closer look

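Among 48 sets of 4 to 6 libraries, 3 held a library farther from the others than Dixon's 95% limit allows, where chance gives about 1 in 20, and the 4 sets of 3 libraries were not tested. Mouse 19 of S1-32 had 8043 CPM of ALDH2, while the other 5 libraries had 5456 to 6305 CPM. Mouse 59 of S3-78 had 47.1 CPM of ALDH6A1, while the other 3 had 262 to 301 CPM. Mouse 41 of S2-32 had 862 CPM of ALDH9A1, while the other 5 had 224 to 276 CPM, and its ALDH2 level, 5299 CPM, lay within its group.

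Of 40 tests of whether the change against controls differs between DCA groups, 11 passed (edgeR), beside 9.33% of the tests of all genes. The differences of Direct-78 from S1-10 and S2-32, where 33.8% and 35.4% of all genes were called, held 5 of the 11. For ALDH2 the log2 change minus that in S1-10 was -1.42 in S3-57, -1.75 in Direct-78, -1.59 in S1-57 and -1.54 in S1-78. For ALDH9A1 it was -1.57, -1.36, -1.45 and -1.48 in the same groups, and for ALDH6A1 -2.74 in Direct-78. The change in Direct-78 minus that in S2-32 was -2.38 for ALDH1A1 and -2.52 for ALDH6A1.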

How the results depend on the processing

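Of the values of the 4 genes under other settings, 736 kept their direction and side of the threshold, 88 lost and 22 gained a call, and 39 changed sign. On leaving out 1 library, 661 kept both, 56 lost and 8 gained a call, and 16 changed sign. None of those that changed sign was called by edgeR in the reported fit, except the 2 differences of Direct-78 from S2-32. ALDH1A1 had the lowest counts, down to 7. The cause of the changes below was not tested.

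Counts include new calls. The 8 calls against controls became 2 with library totals alone (1 of the 8 and ALDH9A1 in S2-32), 5 with all deposited libraries (3 of the 8, and ALDH6A1 and ALDH9A1 in Direct-78), 4 without libraries of high pancreas signal, 4 with the log2 total count as a covariate and 2 with only the compared groups, and were 6 to 9 on leaving out 1 library. DESeq2 gave 10, with all of the 8. The 4 calls between control ages became 0 with totals alone, 1 with all deposited libraries and 0 with only the compared groups, and were 2 to 6 on leaving out 1 library (2 without mouse 68). The 0 calls between stopped and continued DCA became 1 with totals alone (ALDH9A1 in S1-32, -0.89), 1 with all deposited libraries (ALDH6A1 in S1-78, 2.26), 1 with detected genes as a covariate, 1 with only the compared groups (ALDH6A1 in S1-32, 0.88), and were 0 to 1 on leaving out 1 library (1 without mouse 65). The 11 differences became 1 with totals alone, 8 with all deposited libraries (7 of the 11), 6 without libraries of high pancreas signal, 5 with the log2 total count and 7 (6 of the 11) with the squared Spearman correlation as a covariate, the latter chosen after seeing the data, and were 7 to 12 on leaving out 1 library (7 without mouse 68). The 2 genes called by the F test over control ages became 1 with RLE, upper-quartile factors, totals alone, all genes, filterByExpr or detected genes, 0 with all deposited libraries, the log2 total count or only the compared groups, and 1 to 2 on leaving out 1 library. The 3 genes of the F test over DCA contrasts were 3 in each of the 68 removals and 2 with totals alone, with the log2 total count or without libraries of low correlation.

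Values that changed sign, as log2 changes: with totals alone, ALDH1A1 in S1-78 (0.22), ALDH2 in S1-32 (0.0041) and S2-32 (0.14), ALDH6A1 in S2-78 (0.35) and between Control-78 and Control-10 (-0.38), and ALDH9A1 in S2-78 (0.061) and Direct-78 (0.097). With the log2 total count, ALDH1A1 in S3-57 (0.093), and ALDH6A1 in S2-78 (1.15), S3-78 (0.56), Direct-78 (1.31), Control-78 (-0.83) and the difference of Direct-78 from S2-32 (0.41). With the squared Spearman correlation, ALDH1A1 in S1-32 (-0.16), S1-78 (0.26), Direct-78 (1.31) and the difference of Direct-78 from S2-32 (1.198), and ALDH6A1 in S2-78 (0.73), S3-78 (0.20), Direct-78 (1.12), Control-78 (-0.39) and the difference of Direct-78 from S2-32 (0.55). With detected genes, ALDH1A1 in S1-57 (-0.15) and S2-78 (-0.30), and ALDH6A1 in S1-78 (-0.0023) and Control-57 (0.11). Without high pancreas signal, ALDH1A1 in S1-78 (0.067) and S3-57 (0.093) and ALDH6A1 in S2-78 (0.23). With RLE and both DESeq2 fits, ALDH6A1 in S2-78 (0.056) and Control-78 (-0.059), and with upper-quartile factors the latter (-0.12). ALDH1A1 in S2-78 was -0.32 with all deposited libraries and -0.53 with limma-trend, and ALDH2 in S1-32 was 0.0079 with all genes. On leaving out 1 library, ALDH1A1 ran from -0.087 to 0.67 in S1-10, -0.12 to 0.52 in S1-57, -0.48 to 0.029 in S1-78 and -0.22 to 0.60 in S2-78, ALDH6A1 from -0.069 to 0.37 in S1-78, -0.65 to 0.27 in S2-78 and -0.31 to 0.32 in Control-78, and ALDH9A1 from -0.27 to 0.32 in S2-32.

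No paired analysis was possible because each mouse number occurs in 1 group only.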

Other observations

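Ratios of 2 genes within a library do not depend on the normalization factors. The log2 ratio of ALDH9A1 to ALDH2 had means of -4.55 ± 0.47 (SD, n = 4), -4.46 ± 0.10, -4.57 ± 0.24 and -4.57 ± 0.10 (n = 6 each) in Control-10, Control-32, Control-57 and Control-78. In the DCA groups the means lay between -4.72 in S3-78 and -3.72 in S2-78, and the S2-78 libraries, -4.45 to -3.20, lay mostly above the Control-78 libraries (-4.70 to -4.45). The log2 ratio of ALDH6A1 to ALDH2 was -2.81 to -2.60 in the 6 S1-10 libraries and -5.78 to -2.83 in the 4 of Control-10. These ranges nearly touch, and the share of all gene pairs set apart in this way was not computed. In S1-32 the ratio was -3.23 to -2.68, against -7.10 to -2.80 in Control-32. These ratios were not tested.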
